A study of Mus musculus with 16 samples.

Results

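Oxidative phosphorylation genes were described in mouse embryonic fibroblasts that were wild-type or lacked CHOP, with and without proteasome inhibition. They were chosen by name: genes whose symbol begins with Nduf, Uqcr, Atp5 or Cox followed by a digit from 4 to 8, together with Sdha, Sdhb, Sdhc, Sdhd and Cyc1, on autosomes only. The rule gave 89 genes among the 18193 with a probe set that named them alone, and 83 of the 89 were among the 11465 genes tested. By respiratory complex the 89 were 32 genes of complex I, 8 complex I assembly factors (the Ndufaf genes), 4 of complex II, 9 of complex III, 19 of complex IV and 17 of complex V. Each gene was represented by its probe set with the highest mean over the 16 arrays.

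The 4 groups held 4 arrays each. They were CHOP+/+ (wild-type) fibroblasts left untreated, CHOP+/+ fibroblasts given MG132, which inhibits the proteasome, at 1 µM over 8 hours, and CHOP-/- fibroblasts under the same conditions. CHOP is the stress-induced transcription factor encoded by Ddit3, and the series was made to ask which responses to a blocked proteasome need it. The treatment field of the untreated groups reads none, whereas their descriptions name DMSO as vehicle. All cells grew in DMEM with high glucose and serum, each array came from its own plate, and the harvest was at one time for treated and untreated plates. The labels do not say whether plates of a genotype came from separate embryos or isolations, so p-values measure only the spread between these plates, and genotype cannot be told apart from the isolation or clone that carries it.

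Oxidative phosphorylation takes electrons from NADH at complex I and from succinate at complex II, passes them through coenzyme Q, complex III and cytochrome c to oxygen at complex IV, and uses the proton gradient made by complexes I, III and IV to drive ATP synthesis at complex V. Complex II is also an enzyme of the tricarboxylic acid (TCA) cycle and is encoded by nuclear genes alone, whereas the other complexes also hold subunits encoded by mitochondrial DNA. Cultured fibroblasts in high glucose can make much of their ATP by glycolysis. The nuclear genes of the chain are known targets of the transcription factors NRF1, GABP (an ETS factor) and YY1.

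Signals are linear MAS5 intensities, and every array had been scaled to the same trimmed mean of 1000. The median signal per group was 94.2 to 101.9 and the lowest correlation between arrays of a group was 0.985. The 3′ to 5′ ratio of Actb averaged 1.16 on untreated and 1.23 on treated wild-type arrays, and 1.15 and 1.21 on those of the knockout, and that of Gapdh lay between 0.823 and 0.849 in all 4 groups. Ddit3 itself was 887 to 1127 in untreated and 6891 to 8181 in treated wild-type arrays, against 343 to 393 in untreated and 342 to 429.8 in treated knockout arrays, so the labels and this gene go together. Of 13 fibroblast markers, 11 lay above the array median on at least 4 arrays, and Lum and Fap were below it on all 16. Between untreated genotypes 9 of these 11 differed, 4 higher in knockout cells (Dcn, Thy1, Col3a1 and Fn1) and 5 lower (Pdgfra, Pdgfrb, Twist1, Col1a1 and Prrx1). The summed signal of the 13 was 120000 to 143200 on wild-type arrays, 125000 to 139200 on untreated and 103600 to 108400 on treated knockout arrays. Of 35 markers of other cells, 19 lay below the array median on all 16 arrays, Ptprc, Lyz2, Pecam1, Myog and Adipoq among them, and 5 lay above it on all 16 (Acta1, Pparg, Csf1r, Cd14 and Epcam). The sum of the macrophage and leukocyte markers was 754 to 1101 in wild-type and 1472 to 2434 in knockout arrays, and that of the fat cell markers 1078 to 1201 and 358 to 465. Of 3 tested macrophage and leukocyte markers, 1 was higher and 0 lower in untreated knockout cells, and 1 higher and 1 lower with MG132. Their median log2 difference was -0.13 in both comparisons. Cd14 alone ranged from 154 to 1811 over the 16 arrays. Muscle markers summed to 1271 to 1693 on untreated wild-type arrays and 634 to 1014 on the others, epithelial ones to 267 to 447 on untreated and 445 to 648 on treated arrays, and endothelial ones to 283 to 432 on treated knockout arrays and 100 to 277 on the others. The muscle marker Acta1 alone ranged from 416 to 1325, and the endothelial marker Kdr alone from 8.5 to 272. The part of these differences in the results was not tested.

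Promoters of 6 genes on which the results turn are shown because the members largely moved together and because known regulators of the chain have short motifs that can be looked for there. They are the complex II genes that RefSeq's table held and 3 of the genes with the largest changes, from 250 bases before to 30 from the annotated start on, in build GRCm38.p6, 5′ to 3′ along the gene's strand. Capitals mark a match to the NRF1 core GCGCATGC, the ETS motif CCGGAAGT, the YY1 motif AAGATGGC or the composite C/EBP-ATF motif TTGCATCA, on either strand. The windows are at chr13:74350211-74350490, minus strand (Sdha), chr4:140961021-140961300, plus strand (Sdhb), chr9:50603820-50604099, minus strand (Sdhd), chr1:58586147-58586426, plus strand (Ndufb3), chr7:3617123-3617402, plus strand (Ndufa3) and chr4:116075041-116075320, minus strand (Uqcrh).
Sdha: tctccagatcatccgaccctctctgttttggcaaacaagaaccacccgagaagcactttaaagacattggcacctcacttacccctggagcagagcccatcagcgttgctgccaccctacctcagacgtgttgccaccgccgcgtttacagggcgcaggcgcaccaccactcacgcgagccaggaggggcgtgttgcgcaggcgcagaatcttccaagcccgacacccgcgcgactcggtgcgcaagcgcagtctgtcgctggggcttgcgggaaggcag
Sdhb: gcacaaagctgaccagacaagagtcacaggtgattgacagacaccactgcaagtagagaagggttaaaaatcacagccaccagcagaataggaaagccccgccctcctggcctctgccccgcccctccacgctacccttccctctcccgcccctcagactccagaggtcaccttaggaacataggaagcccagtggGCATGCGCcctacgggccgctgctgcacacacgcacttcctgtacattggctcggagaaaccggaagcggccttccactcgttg
Sdhd: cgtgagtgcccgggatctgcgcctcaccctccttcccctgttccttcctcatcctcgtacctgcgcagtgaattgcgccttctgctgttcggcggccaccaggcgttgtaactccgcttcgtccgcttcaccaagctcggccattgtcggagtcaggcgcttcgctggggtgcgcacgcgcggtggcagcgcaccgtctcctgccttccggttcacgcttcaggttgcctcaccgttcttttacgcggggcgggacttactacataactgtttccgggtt
Ndufb3: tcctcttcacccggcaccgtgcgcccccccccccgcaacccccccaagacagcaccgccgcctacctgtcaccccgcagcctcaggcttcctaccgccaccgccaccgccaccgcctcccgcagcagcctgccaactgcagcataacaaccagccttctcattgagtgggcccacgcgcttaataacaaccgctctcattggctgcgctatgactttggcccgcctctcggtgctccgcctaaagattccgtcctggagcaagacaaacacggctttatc
Ndufa3: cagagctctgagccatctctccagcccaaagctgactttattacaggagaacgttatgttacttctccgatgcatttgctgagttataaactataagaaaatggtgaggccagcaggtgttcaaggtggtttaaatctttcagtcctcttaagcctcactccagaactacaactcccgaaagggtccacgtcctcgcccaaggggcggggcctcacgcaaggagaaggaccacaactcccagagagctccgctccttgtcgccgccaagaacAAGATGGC
Uqcrh: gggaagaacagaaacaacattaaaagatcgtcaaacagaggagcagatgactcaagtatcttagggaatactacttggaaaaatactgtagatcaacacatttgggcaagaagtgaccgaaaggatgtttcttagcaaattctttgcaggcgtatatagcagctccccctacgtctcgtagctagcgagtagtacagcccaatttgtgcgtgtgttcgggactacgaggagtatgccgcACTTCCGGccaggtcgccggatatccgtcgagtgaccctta

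The window of Sdhb held the NRF1 core on the opposite strand, 54 bases before the start, that of Uqcrh held the ETS motif on the opposite strand 11 bases before the start, and that of Ndufa3 held the YY1 motif from base 23 after the start. No letters of these 4 motifs stood in the windows of Sdha, Sdhd and Ndufb3. Over the full windows of 300 bases, 72 of the 89 members, tested or not, had an entry. The NRF1 core was found in 11 of these (15.3%, against 3.05% of the 27025 genes in the table), the YY1 motif in 10 (13.9% against 3.19%), the ETS motif in 5 (6.9% against 4.31%) and the C/EBP-ATF motif in 0 (against 1.03%). Among the 48 members with a window that fell in both genotypes the counts were 8, 8, 3 and 0. A match is a description of these letters and not evidence that a factor binds.

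With MG132, most oxidative phosphorylation genes fell in both genotypes on the values as deposited. In wild-type cells 54 of the 83 fell and 10 rose, beside 36.9% of all genes tested that fell and 27.1% that rose (limma, Benjamini-Hochberg adjusted p under 0.05 over all 11465 genes). In knockout cells 57 fell and 7 rose, beside 36.7% and 25.7% of all genes. The members' log2 changes ranged from -1.47 to 0.69 in wild-type cells, with a median of -0.22 against -0.070 over all genes, and in knockout cells the median was -0.28 against -0.074. These are RNA levels in bulk samples, where fewer cells of a type and less RNA per cell cannot be told apart. In these groups the ratio of Actb and the summed epithelial markers moved with the treatment as given above. In wild-type cells the summed muscle markers were lower when treated, and fat cell markers went from 1078 to 1109 untreated to 1118 to 1201 treated. In knockout cells the summed fibroblast markers were lower and the endothelial ones higher when treated. Macrophage and leukocyte markers there summed to 1472 to 1727 untreated and 2213 to 2434 treated. The part of these shifts was not tested.

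The counts depended on how arrays were scaled. When each array was centred on the median of the tested genes, a choice made after seeing the data, the median of all genes moved up by 0.20 in wild-type and 0.14 in knockout cells. The split of members then became 33 lower and 24 higher in wild-type cells (25% and 40% of all genes) and 38 lower and 13 higher in knockout cells (27.6% and 34.9%). Their medians were then -0.017 and -0.13, against 0.13 and 0.071 over all genes. Called the same way under all 4 scalings tried were 33 members that fell and 6 that rose in wild-type cells, and 38 that fell and 4 that rose in knockout cells. No such count over all genes is given here, so these numbers describe the members alone. Between scalings the call turned from lower to higher for Atp5a1, Atp5b, Atp5d and Atp5pb in wild-type cells and for Cox5a and Cox5b in knockout cells, and none of these 6 is given a direction for that response unless the scaling is named.

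The responses of wild-type and knockout cells share no array. All 54 members that fell in wild-type cells also fell in knockout cells (100% and 94.7% of the lists). Over all genes tested, 3185 fell in both, 75.3% and 75.6% of the 2 lists. Cox4i1, Cox6a2, Cox7a2l, Ndufaf2, Uqcrc2 and Uqcrq rose in both as deposited (60% and 85.7% of the lists), against 2145 of all genes (69% and 72.9%). Under all 4 scalings the rise held in both genotypes for Cox6a2, Cox7a2l and Ndufaf2. It held in wild-type cells only for Cox4i1 and Uqcrc2, and in neither genotype for Uqcrq. Those that fell in knockout cells only by the threshold were Cox8a, Ndufb1 and Ndufv1, and 15 members passed in neither genotype. Without any overlap between arrays, 45 members lay lower and 9 higher in treated wild-type cells, beside 33.2% and 23.3% of all genes, and 56 lower and 6 higher in treated knockout cells, beside 34.2% and 24.1%.

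**Figure D1:**
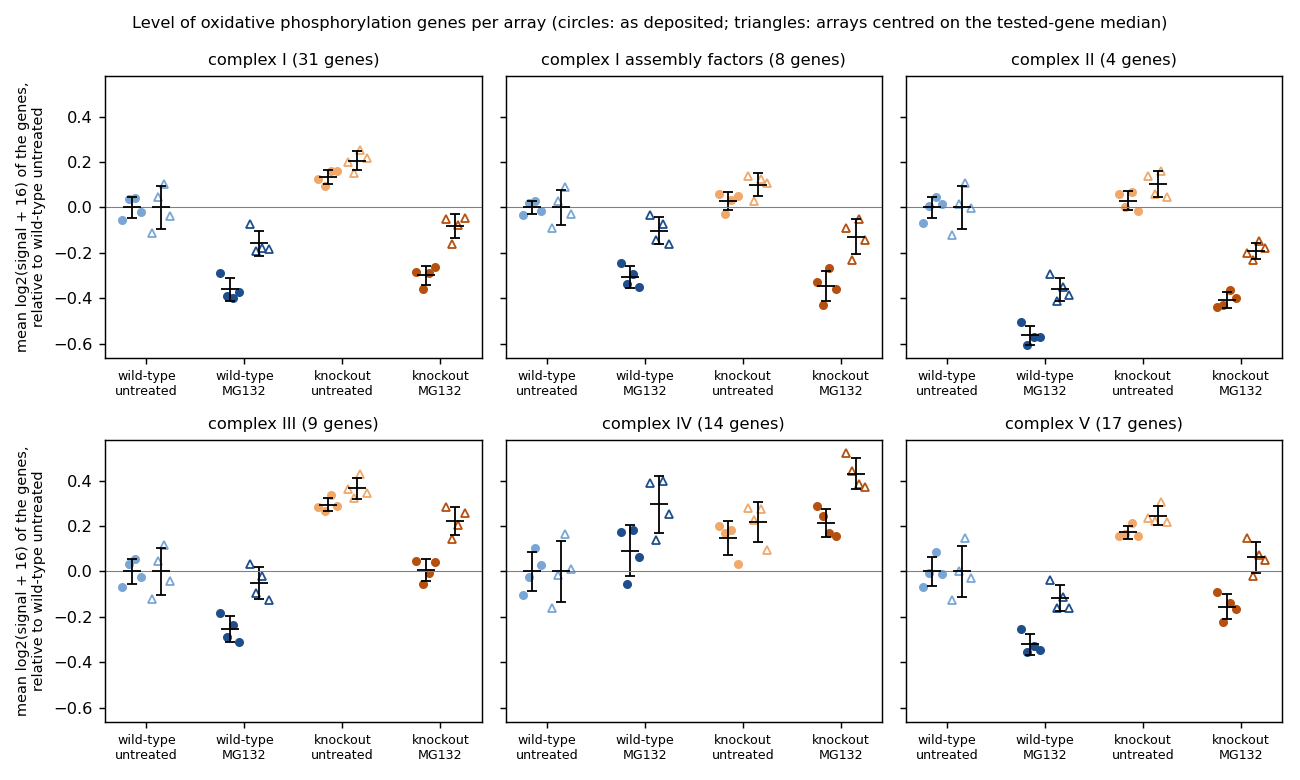
Mean log2(signal + 16) of the tested genes of each complex on every array, relative to the mean of the untreated wild-type arrays; circles use the values as deposited, triangles arrays centred on the tested-gene median, and bars give the mean and SD of 4 arrays. As deposited, treated arrays lie below untreated arrays of the same genotype for complexes I, II, III and V and the assembly factors, and not for complex IV. After centring, treated and untreated wild-type arrays overlap in every set but complex II. Those of knockout cells stay apart in all 6 sets, with complex IV higher when treated. Over the 10 widely expressed complex IV subunits alone, centred knockout means were 0.27 ± 0.043 untreated and 0.29 ± 0.071 treated (SD, n = 4).

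Complex I, the NADH dehydrogenase, had 25 of 31 genes lower and 1 higher in wild-type cells with MG132, with a median of -0.31, and 27 lower and 0 higher in knockout cells, with a median of -0.35. After centring on the tested-gene median the split was 13 lower and 5 higher in wild-type (median -0.11) and 18 and 1 in knockout cells (median -0.21). As deposited, the mean over these genes was -0.36 ± 0.050 (SD, n = 4 arrays) in treated wild-type and -0.30 ± 0.041 in treated knockout arrays, on the log2 scale relative to untreated wild-type arrays, where the SD was 0.047. The signal of Ndufb3 was 7102, 7324, 7494 and 6752 on the untreated wild-type arrays and 2652, 2453, 2651 and 2542 after MG132. Knockout arrays gave 7282, 7229.5, 7636 and 7334 for Ndufb3 untreated and 3115, 2893, 3045 and 3044 treated. Treated and untreated arrays of Ndufb3 did not overlap in either genotype, the treated ones lying below. Ndufb3, an accessory subunit of the membrane arm, changed by -1.47 on the log2 scale (limma, SE 0.045, adjusted p = 4.6e-16) in wild-type and by -1.28 (adjusted p = 4.6e-15) in knockout cells. The signal of Ndufa3 was 11353, 12269, 11923 and 12507 on the untreated wild-type arrays and 6081, 5623, 5846 and 6055 after MG132. Knockout arrays gave 11776, 10538, 12279 and 11915 for Ndufa3 untreated and 5583, 5615, 5772 and 5798 treated. For Ndufa3 all 4 treated arrays were below all 4 untreated arrays in wild-type and in knockout cells. For Ndufa3, another accessory subunit, the log2 change was -1.02 (SE 0.049, adjusted p = 3.2e-13) and -1.03 (SE 0.049, adjusted p = 3.8e-13) in wild-type and knockout cells.

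Other accessory subunits of complex I that fell were Ndufv3, from 6046 ± 232 to 3639 ± 168 in wild-type and from 5169 ± 182 to 2874 ± 46.4 in knockout cells (SD, n = 4), and Ndufa5, with a log2 change of -0.39 in wild-type and -0.77 in knockout cells. In a split of complex I made after the values were seen, 21 of 25 accessory subunits and 4 of 6 core subunits fell in wild-type cells, with medians of -0.34 and -0.15, and 22 and 5 in knockout cells, with medians of -0.39 and -0.24. Centred, these became 12 and 1 in wild-type and 15 and 3 in knockout cells. The core subunits carry the flavin and the iron-sulfur clusters. Ndufs7, whose cluster lies next to the quinone site, fell from 8804 ± 660.0 to 5175 ± 162 in wild-type cells, changing by -0.76 (SE 0.056, adjusted p = 2.8e-10), and by -0.73 in knockout cells. Ndufs1, the largest iron-sulfur subunit, had log2 changes of -0.17 (adjusted p = 0.0012) and -0.12 (adjusted p = 0.013) as deposited, which became 0.033 and 0.020 after centring on the tested-gene median. Ndufv1, the flavin subunit that oxidises NADH, was at -0.011 (adjusted p = 0.87) in wild-type cells and at -0.16 (adjusted p = 0.014) in knockout cells. Ndufa10 stood out as the complex I gene that rose in wild-type cells, by 0.41 (adjusted p = 3.5e-07), with 0.10 (adjusted p = 0.075) in knockout cells. Ndufb4, a membrane arm subunit, was not tested, since its probe sets at high signal name several genes and the remaining one read 31.3 to 87.2.

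Of the 8 Ndufaf genes, which help build complex I and are not part of it, 5 fell and 1 rose in each genotype, with medians of -0.42 in wild-type and -0.52 in knockout cells, and centring gave 4 lower and 2 higher in wild-type (median -0.22) and 5 and 1 in knockout cells (median -0.37). The signal of Ndufaf8 was 3808, 3769.9, 3782 and 3565 on the untreated wild-type arrays and 2389, 2222, 2014 and 2453 after MG132. Knockout arrays gave 3887, 3918, 3702 and 4071 for Ndufaf8 untreated and 2409.7, 2333, 2613 and 2613 treated. No treated array of Ndufaf8 reached the untreated arrays of its genotype, and all treated ones lay below them. Ndufaf8, which works with Ndufaf5 in assembly, changed by -0.72 (SE 0.060, adjusted p = 1.9e-09) in wild-type and -0.64 (SE 0.060, adjusted p = 1.1e-08) in knockout cells. The signal of Ndufaf7 was 1161, 1153, 1199 and 1184 on the untreated wild-type arrays and 757, 692, 682 and 671 after MG132. Knockout arrays gave 1326, 968, 1173 and 1228 for Ndufaf7 untreated and 698, 677, 702 and 741 treated. In each genotype the 4 treated arrays of Ndufaf7 all lay below the 4 untreated arrays. Ndufaf7, a methyltransferase acting on a core subunit, changed by -0.73 (SE 0.081, adjusted p = 1.1e-07) and -0.72 (SE 0.081, adjusted p = 1.8e-07). Ndufaf1, a factor for the membrane arm, changed by -0.51 and -0.60, and Ndufaf4 by -0.34 and -0.43. Ndufaf2 went the other way, from 3251 ± 174 to 4499.9 ± 166 (SD, n = 4) in wild-type cells, changing by 0.47 (SE 0.052, adjusted p = 1.1e-07), and by 0.35 (SE 0.052, adjusted p = 6.5e-06) in knockout cells.

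All 4 genes of complex II, succinate dehydrogenase, fell with MG132 in each genotype on the values as deposited, with medians of -0.55 and -0.38; after centring on the tested-gene median Sdha had a log2 change of 0.041 in wild-type cells and 3 of 4 were lower in each genotype. The signal of Sdhc was 8357, 8889, 8764 and 9123 on the untreated wild-type arrays and 4323, 4591, 4104 and 4656 after MG132. Knockout arrays gave 8693, 8624, 8145 and 8081 for Sdhc untreated and 4343, 4971, 4901 and 4749 treated. Treated and untreated arrays of Sdhc did not overlap in either genotype, the treated ones lying below. Sdhc, a membrane anchor that binds heme and quinone, changed by -0.99 (SE 0.052, adjusted p = 1.7e-12) in wild-type and -0.82 (SE 0.052, adjusted p = 3.4e-11) in knockout cells.

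The signal of Sdhd was 5909, 6171, 6312 and 6149.9 on the untreated wild-type arrays and 4005, 3428, 3685 and 3639 after MG132. Knockout arrays gave 8507, 7498, 8472 and 7968 for Sdhd untreated and 6433, 6059.6, 6428 and 6428 treated. For Sdhd all 4 treated arrays were below all 4 untreated arrays in wild-type and in knockout cells. Untreated knockout arrays thus lay above untreated wild-type arrays for Sdhd, the other membrane anchor, and treated knockout arrays above treated wild-type arrays. Its log2 change was -0.73 (SE 0.051, adjusted p = 1.3e-10) in wild-type cells and -0.35 (SE 0.051, adjusted p = 5.1e-06) in knockout cells. The signal of Sdhb was 10548, 11387, 12102 and 11019 on the untreated wild-type arrays and 9279.8, 8119.9, 8879.6 and 8626 after MG132. Knockout arrays gave 12763, 11822, 13133 and 12139.5 for Sdhb untreated and 9626, 8931, 9738 and 9399 treated. No treated array of Sdhb reached the untreated arrays of its genotype, and all treated ones lay below them. Sdhb, the iron-sulfur subunit, changed by -0.37 (SE 0.052, adjusted p = 3.0e-06) and -0.40 (SE 0.052, adjusted p = 1.0e-06). The signal of Sdha was 10112, 10346, 10783 and 10724 on the untreated wild-type arrays and 9695, 9257, 9690.1 and 8866 after MG132. Knockout arrays gave 7950.3, 8385, 8520.1 and 7815 for Sdha untreated and 6989.9, 7181, 7591 and 7353 treated. In each genotype the 4 treated arrays of Sdha all lay below the 4 untreated arrays. Sdha, the flavin subunit that oxidises succinate, changed by -0.16 (SE 0.045, adjusted p = 0.0034) and -0.17 (SE 0.045, adjusted p = 0.003) as deposited. The anchors Sdhc and Sdhd thus fell by more than Sdha in wild-type cells as deposited, a difference between genes that was not tested.

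**Figure D2:**
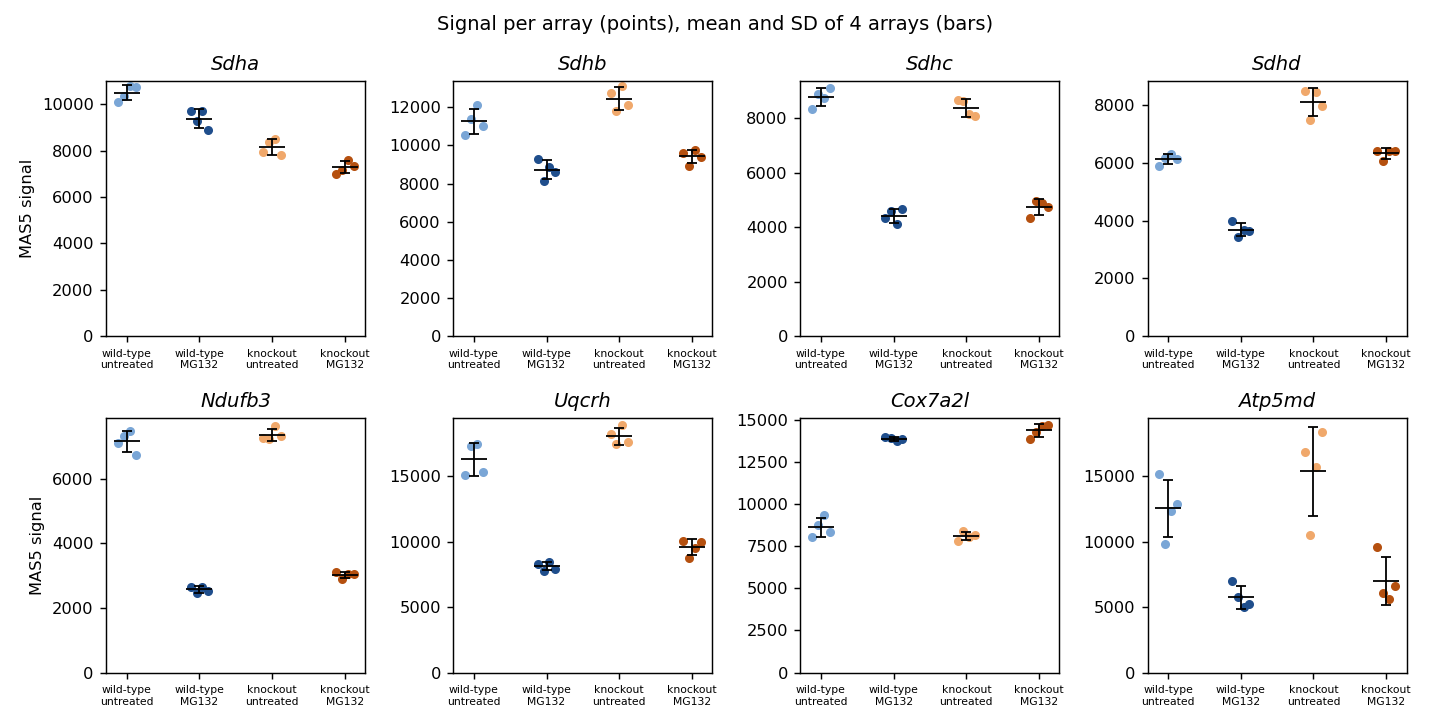
MAS5 signal of 8 genes on each of the 16 arrays (points), with the mean and SD of the 4 arrays of a group (bars); each vertical axis starts at 0, and levels are not comparable between panels. Treated arrays lie apart from untreated arrays of their genotype for all 8 genes, higher for Cox7a2l and lower for the other 7; the Sdha change of wild-type cells turns sign under centring on the tested-gene median.

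In complex III, the cytochrome bc1 complex, 5 of 9 genes fell and 2 rose in each genotype, with medians of -0.20 in wild-type and -0.17 in knockout cells, which after centring on the tested-gene median became 3 lower and 3 higher in wild-type (median 0.004) and 3 and 2 in knockout cells (median -0.028). The signal of Uqcrh was 15081, 17288, 17428 and 15311 on the untreated wild-type arrays and 8291, 7786, 8465 and 7915 after MG132. Knockout arrays gave 18209, 17421, 18896 and 17628 for Uqcrh untreated and 10080.1, 8778, 9519.9 and 10000.0 treated. Treated and untreated arrays of Uqcrh did not overlap in either genotype, the treated ones lying below. Uqcrh, the hinge protein beside cytochrome c1, changed by -1.0 (SE 0.056, adjusted p = 3.6e-12) and -0.91 (SE 0.056, adjusted p = 1.8e-11). The signal of Uqcr11 was 9470.1, 9993, 10064 and 9546 on the untreated wild-type arrays and 6192, 5327, 5256 and 5664 after MG132. Knockout arrays gave 12320.2, 11695, 12207 and 12704 for Uqcr11 untreated and 6953, 6553, 6711 and 7008 treated. For Uqcr11 all 4 treated arrays were below all 4 untreated arrays in wild-type and in knockout cells. Uqcr11, a small subunit, changed by -0.80 (SE 0.050, adjusted p = 2.1e-11) and -0.84 (SE 0.050, adjusted p = 1.1e-11). Uqcrb, which lines the quinone pocket, changed by -0.22 and -0.24 as deposited, both past the threshold, and was at -0.017 and -0.095, neither past it, after that centring. The other probe set of Uqcrb gave larger changes as deposited, -0.80 (SE 0.051) in wild-type and -0.76 (SE 0.051) in knockout cells.

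Among the catalytic and core subunits of complex III, 1 fell and 1 rose in each genotype as deposited. Cyc1, cytochrome c1, was at -0.035 (adjusted p = 0.73) and 0.018 (adjusted p = 0.86), and Uqcrc1, a core protein, at -0.018 (adjusted p = 0.77) and -0.078 (adjusted p = 0.17). Uqcrfs1, the Rieske iron-sulfur protein, had -0.20 (adjusted p = 4.2e-04) in wild-type cells as deposited, which became 0.0035 after centring on the tested-gene median, and -0.17 in knockout cells. Uqcrc2, the other core protein, rose from 7532 ± 269 to 8952 ± 496 in wild-type cells (SD, n = 4), by 0.25 (SE 0.048, adjusted p = 1.3e-04), and by 0.12 (adjusted p = 0.037) in knockout cells.

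In complex IV, cytochrome c oxidase, genes moved in both directions: 4 of 14 genes fell and 6 rose in wild-type cells, with a median of 0.16, and 5 fell and 4 rose in knockout cells, with a median of 0.047, which became -0.068 after quantile normalisation; centring on the tested-gene median gave 3 lower and 9 higher in wild-type (median 0.36) and 2 and 7 in knockout cells (median 0.19). The signal of Cox7a2l was 8045, 8741, 9359.7 and 8339 on the untreated wild-type arrays and 13986, 13904, 13738 and 13841 after MG132. Knockout arrays gave 7839, 8399, 8032 and 8195 for Cox7a2l untreated and 13866, 14305, 14662 and 14713 treated. No treated array of Cox7a2l reached the untreated arrays of its genotype, and all treated ones lay above them. Cox7a2l, which joins complexes III and IV into a supercomplex, rose by 0.69 (SE 0.045, adjusted p = 4.1e-11) and 0.82 (SE 0.045, adjusted p = 3.1e-12), and its other 2 probe sets gave 0.49 and 0.72 in wild-type and 0.74 and 0.88 in knockout cells. The signal of Cox6b1 was 22070.0, 24118, 25619.5 and 23304 on the untreated wild-type arrays and 16149.8, 14762, 14617 and 15268 after MG132. Knockout arrays gave 23162, 23253, 24004 and 22552 for Cox6b1 untreated and 15142, 14637, 14636 and 15961 treated. In each genotype the 4 treated arrays of Cox6b1 all lay below the 4 untreated arrays. Cox6b1, a subunit facing the intermembrane space, changed by -0.64 (SE 0.048, adjusted p = 3.4e-10) and -0.62 (SE 0.048, adjusted p = 6.8e-10).

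Several complex IV subunits exist as isoforms that differ by tissue. A split made after the values were seen set Cox7a2l and the isoforms Cox6a2, Cox8c and Ndufa4l2 apart. Of the other 10 subunits, 4 fell and 4 rose in wild-type cells as deposited (median 0.042). In knockout cells 5 of them fell and 1 rose (median -0.072). Centred on the tested-gene median, 3 were lower and 6 higher in wild-type and 2 and 4 in knockout cells. Cox7a2, the widely expressed partner of the muscle isoform Cox7a1, changed by -0.51 (adjusted p = 1.2e-08) in wild-type and -0.26 (adjusted p = 8.3e-05) in knockout cells. Ndufa4, once counted to complex I and now placed in complex IV, changed by -0.44 and -0.45 (adjusted p = 1.8e-07 and 1.5e-07), while its hypoxia-linked partner Ndufa4l2 had 0.57 (SE 0.58, adjusted p = 0.41) at a mean signal under 100 in every group. Cox4i1, the regulatory subunit with the lung partner Cox4i2, rose by 0.31 (adjusted p = 2.8e-05) and 0.19 (adjusted p = 0.0027) as deposited. Cox6a1 had 0.10 (adjusted p = 0.26), and its muscle partner Cox6a2 0.56 (adjusted p = 0.021) at 126 ± 22.9 untreated and 195 ± 44.2 treated (SD, n = 4). Cox8a and the testis isoform Cox8c were at -0.013 and 0.15 in wild-type cells, neither past the threshold, and at -0.15 (adjusted p = 0.022) and 0.47 (adjusted p = 0.0066) in knockout cells. The tissue isoforms Cox4i2, Cox6b2, Cox7a1, Cox7b2 and Cox8b were not tested, being above the array median on at most 2 of 16 arrays. Cox7c was represented by a probe set of mean signal 265, and its log2 change of 0.36 (SE 0.12, adjusted p = 0.015) in wild-type cells rests on that low signal.

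Complex V, the ATP synthase, had 11 of 17 genes lower and 0 higher in each genotype as deposited, with medians of -0.24 and -0.23, and after centring on the tested-gene median 7 lower and 5 higher in wild-type (median -0.037) and 7 and 2 in knockout cells (median -0.083). As deposited and at an unadjusted p under 0.05, 0 genes of complex V were higher in wild-type and 2 in knockout cells, and 1 gene of complex I was higher in knockout cells. In a split made after the values were seen, all 5 small membrane subunits and all 3 genes of the c-ring fell in each genotype, against 2 of 5 genes of the catalytic F1 head and 1 of 4 of the peripheral stalk, as deposited. Centred, 3 of 5, 2 of 3, 1 of 5 and 1 of 4 were lower in each genotype, Atp5j2, Atp5l, Atp5g3 and Atp5c1 no longer past the threshold. The other probe sets of Atp5j2, of mean signal 17360 and 177, gave -0.56 and -0.39 in wild-type cells as deposited. In knockout cells they gave -0.55 and -0.38. The signal of Atp5md was 15158, 9842, 12353 and 12891 on the untreated wild-type arrays and 6998, 5813, 5038 and 5226 after MG132. Knockout arrays gave 16892, 10516, 15746 and 18369 for Atp5md untreated and 9642, 6095, 5628 and 6647 treated. Treated and untreated arrays of Atp5md did not overlap in either genotype, the treated ones lying below. Atp5md, a small subunit at the dimer interface, changed by -1.12 (SE 0.17, adjusted p = 7.0e-06) and -1.13 (SE 0.17, adjusted p = 6.2e-06), with SDs within groups of 883 to 3420. The signal of Atp5mpl was 11416, 11616, 12169 and 10361 on the untreated wild-type arrays and 6942, 6568, 6539.9 and 6315 after MG132. Knockout arrays gave 11042, 10134, 10478 and 10317 for Atp5mpl untreated and 5893, 5008, 5789.6 and 5135 treated. For Atp5mpl all 4 treated arrays were below all 4 untreated arrays in wild-type and in knockout cells. Atp5mpl, another small membrane subunit, changed by -0.79 (SE 0.058, adjusted p = 2.8e-10) and -0.94 (SE 0.058, adjusted p = 2.1e-11).

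Atp5k and Atp5l, subunits e and g of the membrane part, changed by -0.61 and -0.25 in wild-type and by -0.64 and -0.23 in knockout cells. The c-ring, the rotor turned by protons, is encoded by Atp5g1, Atp5g2 and Atp5g3, which changed by -0.56, -0.39 and -0.21 in wild-type and by -0.57, -0.30 and -0.20 in knockout cells; Atp5l (-0.047 and -0.083) and Atp5g3 (-0.0043 and -0.058) did not pass after centring. Atp5j, a coupling factor of the stalk, changed by -0.60 (SE 0.050, adjusted p = 1.5e-09) and -0.46 (SE 0.050, adjusted p = 8.8e-08), and Atp5e, the epsilon subunit of the head, by -0.56 and -0.67. The catalytic subunits Atp5a1 and Atp5b were at -0.030 (adjusted p = 0.62) and 0.10 (adjusted p = 0.11) in wild-type cells, and at -0.005 (adjusted p = 0.94) and 0.12 (adjusted p = 0.067) in knockout cells as deposited. Across the 83 members the rank correlation of the change with mean signal was 0.17 in wild-type and 0.26 in knockout cells, and with gene span 0.10 and 0.060, given as descriptions over genes that share the same arrays.

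**Figure D3:**
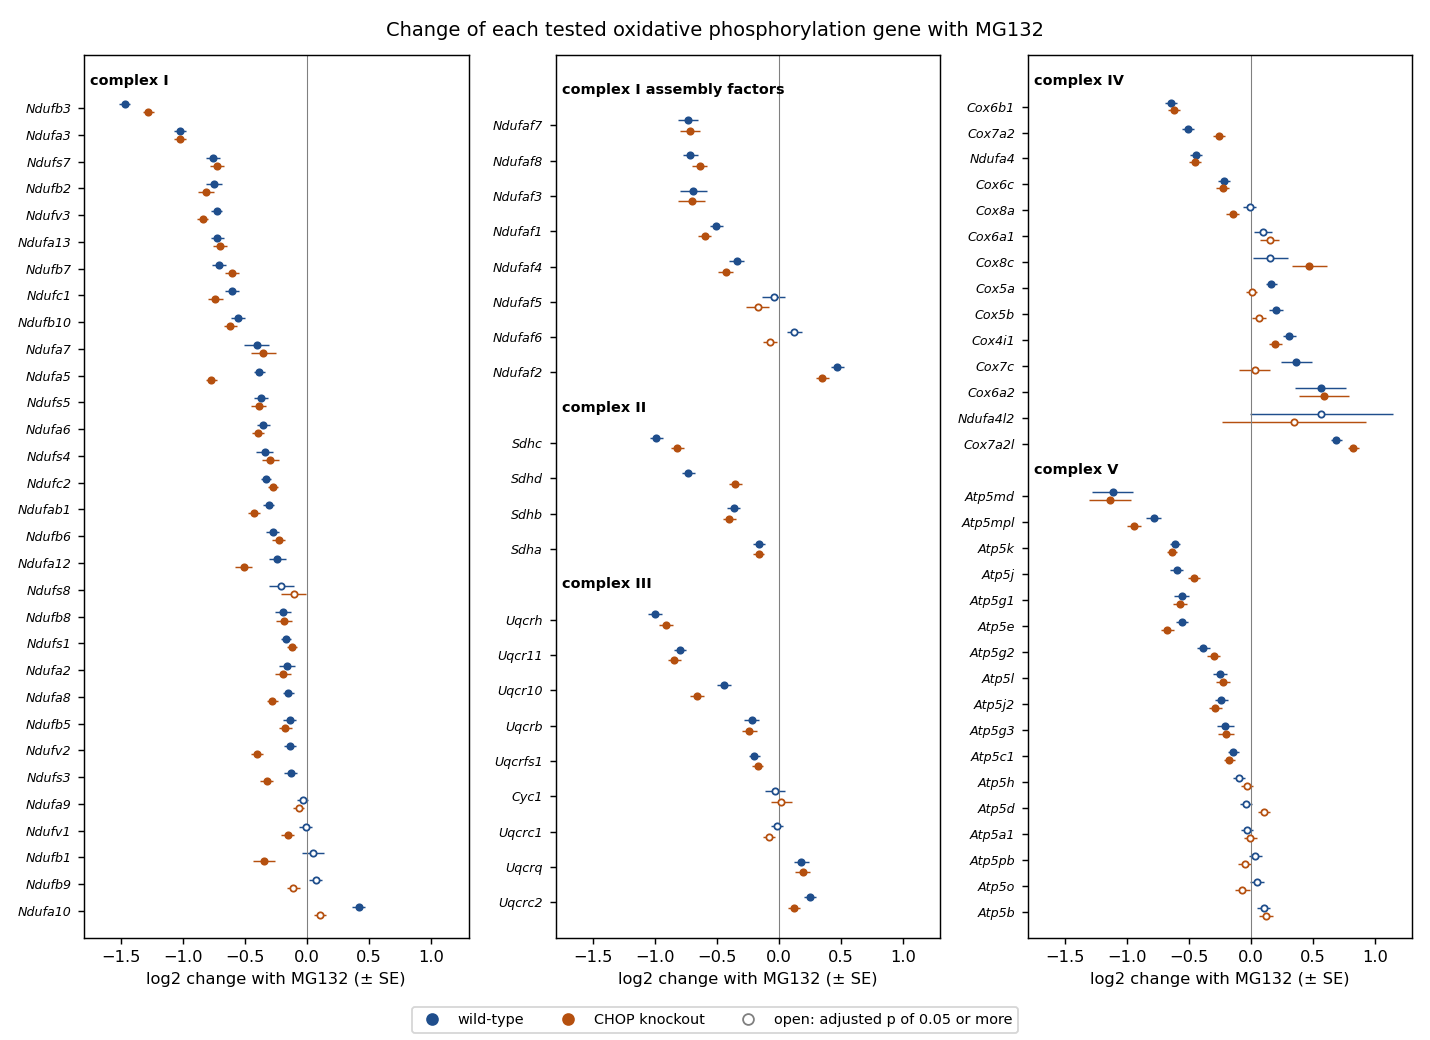
Log2 change with MG132 of the 83 tested genes, by complex and sorted by the wild-type value, in wild-type (blue) and knockout cells (orange), on the log2(signal + 16) scale as deposited; bars are standard errors from limma and open points did not pass. Most points of complexes I, II and V lie left of 0 in both genotypes, and complex IV lies on both sides. Under all 4 scalings, 33 lower and 6 higher calls of wild-type cells and 38 lower and 4 higher calls of knockout cells held. No such count over all genes is given.

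Whether the response differed between genotypes was tested as the interaction, the knockout response minus the wild-type response. Of the 83 members, 3 were higher and 5 lower, beside 14.1% of all genes higher and 14.1% lower, with a median of -0.019 against -0.002 over all genes. The higher members were Sdhd at 0.38 (SE 0.073, adjusted p = 5.8e-04), Cox7a2 at 0.25 (SE 0.068, adjusted p = 0.01) and Ndufb3 at 0.19 (SE 0.064, adjusted p = 0.032). Each of these fell in both genotypes, and less in knockout than in wild-type cells. The lower members were the complex I genes Ndufb1 at -0.40 (SE 0.13, adjusted p = 0.023), Ndufa5 at -0.39 (SE 0.062, adjusted p = 1.1e-04), Ndufa10 at -0.31 (SE 0.070, adjusted p = 0.0024), Ndufa12 at -0.27 (SE 0.10, adjusted p = 0.045) and Ndufv2 at -0.26 (SE 0.067, adjusted p = 0.0052). Centred on the median over all probe sets, the 3 higher and 5 lower members became 3 and 0, beside 14.4% and 6.22% of all genes. Quantile normalisation gave 4 and 10, beside 15.2% and 14.2%. Centring on the median of tested genes gave 1 and 10, beside 11% and 17.5%. Sdhd was the member called under all 4 scalings. A second probe set of Sdhd gave an interaction of 0.65 (SE 0.13). The adjusted p of Ndufb1 rose to 0.055 without untreated knockout replicate 1 and to 0.051 without treated knockout replicate 2. Ndufb3 and Ndufa12 were named here after their values were seen.

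Ndufa5 fell from 7768 ± 161 to 5939.6 ± 159 in wild-type cells and from 8852 ± 286 to 5182 ± 273 in knockout cells (SD, n = 4). It was higher in knockout than in wild-type cells untreated, by 0.19 (adjusted p = 0.0011), and lower with MG132, at -0.20 (adjusted p = 6.4e-04). Ndufb1 was 1056 ± 83.9 and 1088 ± 68.3 in wild-type and 751 ± 60 and 586 ± 70.6 in knockout cells. Its wild-type level did not pass (log2 change 0.043 (SE 0.089, adjusted p = 0.69)), and its knockout level changed by -0.35 (adjusted p = 0.0018). Ndufv2, an iron-sulfur subunit of the NADH module, changed by -0.40 in knockout cells, and had -0.14 in wild-type cells, which became 0.064 after centring on the tested-gene median.

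Without treatment, 50 of the 83 oxidative phosphorylation genes were higher and 7 lower in knockout than in wild-type cells as deposited, beside 28.6% and 26.9% of all genes, with a median log2 difference of 0.16 against 0.010 over all genes. The split was 38 higher and 4 lower when arrays were centred on the median of all probe sets (24.6% and 23% of all genes). It was 46 and 9 after quantile normalisation (29.9% and 26.5% of all genes). Centred on the tested-gene median, it was 53 and 4 (34.2% and 21.8%). With MG132, 39 were higher and 13 lower, beside 30.7% and 28% of all genes, with a median of 0.13 against 0.021. The members' medians of both comparisons were above 0 under all 4 scalings. The treated split became 48 higher and 7 lower under centring on the median of all probe sets (35.2% and 20.3% of all genes). After quantile normalisation it was 35 and 16 (32.8% and 26.5%). The untreated and treated comparisons share no array, and 36 members were higher in both (72% and 92.3% of the lists), against 2261 of all genes (69% and 64.2%). The 7 members lower in untreated knockout cells were lower with MG132 as well (100% and 53.8% of the lists), against 2108 of all genes (68.3% and 65.6%). They were Cox7c, Ndufaf2, Ndufaf3, Ndufb1, Ndufs1, Ndufv3 and Sdha. Arrays did not overlap for 42 higher and 7 lower members untreated, beside 25.4% and 24.3% of all genes, and for 34 higher and 10 lower members with MG132, beside 27.8% and 25.5%. The untreated wild-type arrays also enter the wild-type MG132 response, so the values of the 2 comparisons are only given side by side. The summed macrophage and leukocyte markers, the summed fat cell markers and single fibroblast markers differed between genotypes as given above, and their part was not tested.

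By complex, the counts of higher and lower genes in knockout cells as deposited were as follows. Over all genes the shares were 28.6% higher and 26.9% lower untreated, and 30.7% and 28% with MG132. Complex I had 19 higher and 3 lower of 31 untreated and 14 and 7 with MG132, with medians of 0.17 and 0.082. The assembly factors had 3 higher and 2 lower of 8 untreated (37.5% and 25%) and 1 and 2 with MG132 (12.5% and 25%), with medians of 0.026 and 0.022. Complex II had 2 higher and 1 lower of 4 untreated and 1 and 1 with MG132, with medians of 0.040 and 0.11. Complex III had 7 higher and 0 lower of 9 untreated and 6 and 1 with MG132, with medians of 0.32 and 0.28. Complex IV had 6 higher and 1 lower of 14 untreated and 6 and 1 with MG132, with medians of 0.10 and 0.10. Complex V had 13 higher and 0 lower of 17 untreated and 11 and 1 with MG132, with medians of 0.20 and 0.16. Complex III had the highest median of the 6 sets at each treatment, and its mean over genes was 0.29 ± 0.030 (SD, n = 4 arrays) in untreated and 0.007 ± 0.047 in treated knockout arrays, against -0.26 ± 0.058 in treated wild-type arrays, on the log2 scale relative to untreated wild-type arrays.

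The complex III genes higher in knockout cells included its electron carriers. Cyc1 was 12931 ± 1330.0 in untreated wild-type and 18402 ± 1080.0 in untreated knockout cells (SD, n = 4), a log2 difference of 0.51 (SE 0.083, adjusted p = 2.3e-05), and 0.57 (SE 0.083, adjusted p = 6.4e-06) with MG132. Uqcrfs1 differed by 0.37 (SE 0.043, adjusted p = 4.5e-07) untreated and 0.39 (SE 0.043, adjusted p = 1.5e-07) with MG132, and Uqcrc1 by 0.43 (SE 0.048, adjusted p = 1.9e-07) and 0.37 (SE 0.048, adjusted p = 1.4e-06). Uqcrq, a small subunit near the quinone site, was 7462 ± 266 and 11170.0 ± 82.3, a difference of 0.58 (SE 0.058, adjusted p = 4.0e-08). Its 3 other probe sets, of mean signal 64.3 to 102.5, gave differences of -0.050, -0.18 and -1.0 with standard errors of 0.27 to 0.47.

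Uqcr10, a small subunit of complex III, had a log2 change with MG132 of -0.44 (SE 0.058, adjusted p = 1.1e-06) in wild-type and -0.66 (SE 0.058, adjusted p = 4.3e-09) in knockout cells, whereas its 2 other probe sets gave 0.087 and 0.39 in wild-type and -0.18 and -0.022 in knockout cells. It also gave opposite differences between genotypes by probe set. The probe set with the highest signal was higher in untreated knockout cells by 0.31 (SE 0.058, adjusted p = 1.4e-04), whereas the 2 others were at -2.39 (SE 0.12) and -3.91 (SE 0.18), and at -2.66 and -4.32 with MG132. Ndufa12 was similar in that its 4 probe sets gave untreated differences of 0.12, -0.69, 0.56 and 0.083. The genotype differences of Uqcr10 and Ndufa12 therefore depend on the probe set, and both genes were singled out after their values were seen.

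In complex I, Ndufb7 was higher in knockout cells by 0.45 (SE 0.055, adjusted p = 6.2e-07) untreated and 0.55 (SE 0.055, adjusted p = 3.0e-08) with MG132, Ndufa6 by 0.41 and 0.37, and Ndufa9 by 0.39 and 0.36. These 3 are accessory subunits, and Ndufa9 sits beside the quinone site. Ndufb1 was lower, at -0.48 and -0.88 (adjusted p = 1.0e-04 and 4.2e-08), and Ndufs1 differed by -0.16 and -0.12. Among assembly factors Ndufaf6 was higher by 0.50 and 0.31, and Ndufaf3 lower, at -0.49 and -0.50. The complex II subunits differed in direction. Sdhd was higher in knockout cells by 0.40 (SE 0.051, adjusted p = 1.4e-06) untreated and 0.78 (SE 0.051, adjusted p = 6.8e-11) with MG132, and Sdha was lower, at -0.36 (adjusted p = 7.9e-07) and -0.36 (adjusted p = 6.3e-07), with no overlap between arrays in either case. Sdhb differed by 0.15 (SE 0.052, adjusted p = 0.021) and 0.11 (SE 0.052, adjusted p = 0.071), and Sdhc by -0.067 (SE 0.052, adjusted p = 0.29) and 0.10 (SE 0.052, adjusted p = 0.1). The adjusted p of the untreated Sdhb difference rose to 0.054 to 0.077 when replicate 1 or 4 of the untreated wild-type arrays or replicate 1 or 3 of the untreated knockout arrays was left out.

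In complex IV, Cox6c was 17700.0 ± 1020.0 in wild-type and 25107 ± 987 in knockout cells untreated (SD, n = 4), a difference of 0.50 (SE 0.049, adjusted p = 2.5e-08), with 0.49 after MG132. The other probe set of Cox6c gave smaller differences, 0.14 (SE 0.053) untreated and 0.35 (SE 0.053) with MG132. Cox8a was higher by 0.48 and 0.35, Cox4i1 by 0.33 and 0.22, Ndufa4 by 0.35 and 0.34, and Cox7a2 by 0.29 and 0.54. Cox7a2l did not pass in either comparison, at -0.085 (SE 0.045, adjusted p = 0.12) and 0.053 (SE 0.045, adjusted p = 0.33). In complex V, Atp5l was higher by 0.40 (SE 0.058, adjusted p = 6.2e-06) and 0.42 (SE 0.058, adjusted p = 2.6e-06), Atp5j by 0.22 and 0.37, and Atp5g2 by 0.25 and 0.33. Atp5a1 and Atp5b were higher by 0.13 (adjusted p = 0.036) and 0.14 (adjusted p = 0.035) untreated.

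**Figure D4:**
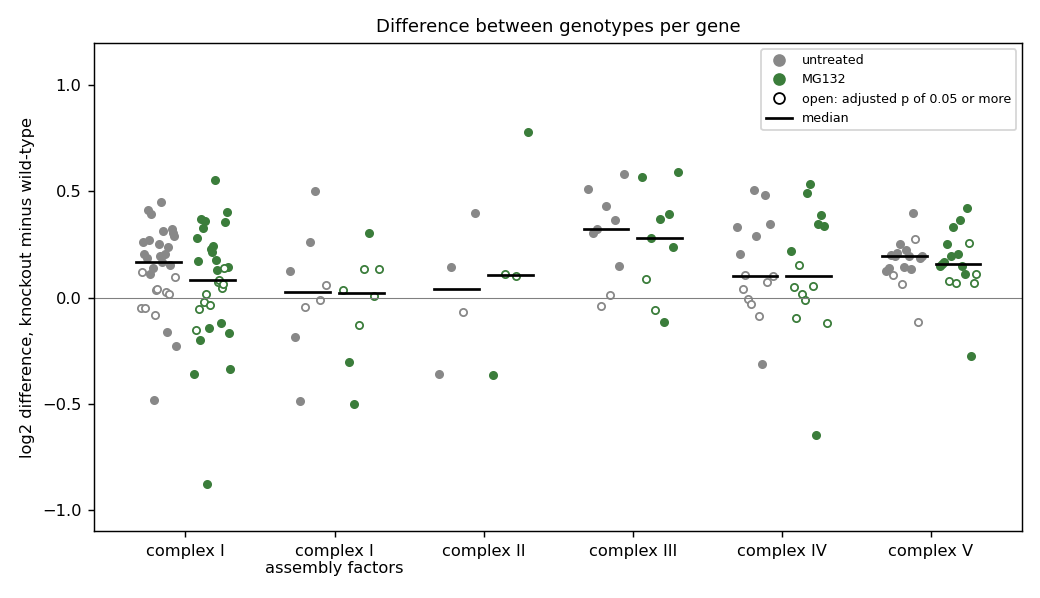
Log2 difference between knockout and wild-type cells of the 83 tested genes by complex, untreated (grey) and with MG132 (green), as deposited; bars are medians and open points did not pass in limma. Most points lie above 0 in complexes I, III, IV and V, Sdhd lies at 0.40 and 0.78, and Ndufb1 reaches -0.88. Under all 4 scalings, 38 higher and 4 lower calls untreated held. No such count over all genes is given.

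Genes of the wider pathway that the rule did not choose were counted from lists. Of 39 tested assembly factors and translation factors of complexes I to V, 22 fell and 8 rose in wild-type cells (median -0.34) and 25 fell and 7 rose in knockout cells (median -0.41), beside the shares of all genes given above. After centring on the tested-gene median 18 were lower and 16 higher in wild-type and 21 and 10 in knockout cells, with medians of -0.14 and -0.26. The smallest adjusted p in wild-type cells were those of Sdhaf4 and Sdhaf1, factors that help assemble complex II, at -1.42 (SE 0.074, adjusted p = 1.6e-12) and -1.21 (SE 0.080, adjusted p = 4.9e-11), and of Coa6 and Coa3, complex IV factors, at -1.08 and -1.04. In knockout cells Sdhaf4 and Sdhaf1 changed by -1.46 and -1.36. Of 14 genes for cytochrome c and coenzyme Q synthesis, 7 fell and 1 rose in wild-type and 6 and 1 in knockout cells, with a wild-type median of -0.20 that became 0.009 after centring on the tested-gene median. Coq2, which joins the ring of coenzyme Q to its tail, changed by -1.34 (SE 0.093, adjusted p = 9.9e-11) and -1.44 (SE 0.093, adjusted p = 4.2e-11), whereas Cycs, cytochrome c, had -0.041 (adjusted p = 0.47) in wild-type cells. Among 16 genes of the TCA cycle and pyruvate dehydrogenase, 6 fell and 6 rose in wild-type and 7 fell and 5 rose in knockout cells, with medians of 0.044 and -0.045, whose signs turned between scalings (-0.072 to 0.25 and -0.080 to 0.10). Suclg2, of succinyl-CoA ligase, the step before succinate dehydrogenase, changed by -0.89 (SE 0.046, adjusted p = 1.4e-12) in wild-type cells, and Pdhb, of pyruvate dehydrogenase, by 0.94 (SE 0.044, adjusted p = 2.2e-13).

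Of 18 nuclear regulators of mitochondrial gene expression, 7 rose and 5 fell in wild-type and 9 rose and 4 fell in knockout cells with MG132, beside 27.1% of all genes that rose and 36.9% that fell in wild-type and 25.7% and 36.7% in knockout cells. The wild-type balance turned with the scaling, with 11 higher and 3 lower after centring on the tested-gene median (40% and 25% of all genes). It was 5 and 5 after centring on the median of all probe sets (21.8% and 37.4% of all genes). After quantile normalisation it was 5 and 6 (28.2% and 35.8%). Gabpb1, a subunit of the ETS factor GABP, rose by 0.95 (SE 0.077, adjusted p = 1.2e-09) in wild-type cells, and Polrmt, the mitochondrial RNA polymerase, changed by -0.96 (SE 0.074, adjusted p = 5.2e-10) there and by -0.30 in knockout cells. Nrf1 and Yy1 changed by 0.32 and 0.19 in wild-type cells, both past the threshold, and Gabpa by 0.081 (adjusted p = 0.18). Between genotypes 11 of these regulators were higher and 4 lower in untreated knockout cells, beside 28.6% and 26.9% of all genes. The coactivator Ppargc1b was 21.3 ± 11.7 in wild-type and 229 ± 15.5 in knockout cells (SD, n = 4, untreated), and Ppargc1a 37.1 ± 20.7 and 221 ± 13.9. The wild-type means of both lay below the median signal of an array, so no fold is given. Of 5 tested carriers of ADP, ATP and phosphate and outer membrane channels, 1 rose and 1 fell in wild-type and 2 rose and 1 fell in knockout cells, and the signs of their medians turned between scalings.

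Genes with more than 1 single-gene probe set allowed a check within the arrays. There were 77 further probe sets for 47 of the tested members. Where the member was called in wild-type cells, 55 of 61 further probe sets had the same sign of the MG132 change, the exceptions being probe sets of Atp5g2, Ndufa12, Ndufab1, Uqcr10 and Uqcrq. In knockout cells it was 55 of 56, in the untreated comparison of genotypes 41 of 49 and in the treated one 40 of 43. Uqcrh had -1.47 (SE 0.091) in wild-type and -1.43 in knockout cells by its other probe set, and Sdhc -0.96 (SE 0.13) and -0.71. Probe sets of the same gene can bind different transcript ends or related sequences, which the files do not separate.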

How the data were processed

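Total RNA of 16 fibroblast cultures was biotin-labelled by 3′ in vitro transcription and hybridised to Affymetrix mouse arrays, 1 colour per array, per the labels' protocols. The authors deposited linear signal intensities per probe set, made with MAS5 per the submitters' processing notes, with its version not given in the sources used here. On each array the mean after trimming 2% at each end was 1000. Such scaling assumes a common total, so a shift shared by many genes cannot be seen.

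Of 45101 probe sets, 64 were controls, 9160 named no gene, 932 named several and were not used, and 34945 named 1 gene in the platform's annotation. Per gene the brightest probe set by its mean over the arrays was taken. Signals were used as log2(signal + 16), with no further normalisation, so fold changes of low signals are understated. Genes above the array median on at least 4 of 16 arrays were tested. limma 3.58.1 in R 4.3.3 fitted the 4 groups together (12 residual and 7.66 prior degrees of freedom, variance trend), two-sided, for 5 contrasts, with Benjamini-Hochberg adjustment over all 11465 genes within a contrast and a threshold of 0.05. The script was tested on simulated data. Standard errors come from that fit. "Rose", "fell", "higher" and "lower" of a gene mean past the threshold, and changes are log2. The number of arrays limits the precision, and low signals are the least precise. 2 genes that match the rule lie on X and were left out.

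The members and lists were chosen with earlier results of these data known. Named were, per contrast and complex, up to 4 called members with the smallest adjusted p, the complex II genes and main catalytic subunits, isoform partners and untested members, and from each pathway list up to 4 called genes. Values per array were given for the complex II genes and the 2 largest changes per complex. Any other gene was named after its values were seen. Lists of genes are given by counts and medians, with no test of their own. Alternatives were other scalings, pseudocounts, filters, probe set rules, variance models, a replicate block and leaving out each array.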

Additional observations from a re-analysis of the deposited data

Results flagged for a closer look

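Among 232 groups of 4 arrays of the named genes, 13 held an array whose gap to its nearest neighbour was large against the range of the group. Chance alone flags about 1 in 20 groups. In untreated wild-type cells these were Ndufaf8 at 3565 in replicate 4 (others 3770 to 3808), Ndufa4l2 at 82.8 in replicate 4 (others 22.9 to 23.3), and, in replicate 1, Atp5j at 14480.0 (others 15740.0 to 15840.0) and Atp5g1 at 8470.0 (others 9758 to 10030.0). In treated wild-type cells they were Ndufaf1 at 1799 in replicate 2, Uqcrq at 9676 in replicate 1, Ndufs1 at 5509 in replicate 3 and Cyc1 at 10240.0 in replicate 4 (others 13150.0 to 13820.0). In untreated knockout cells they were Ndufaf1 at 2565 in replicate 2 and Atp5j at 17100.0 in replicate 1. In treated knockout cells they were Sdhd at 6060.0 in replicate 2 (others 6428 to 6433), Ndufa10 at 9976 in replicate 3 and Ndufs1 at 5647 in replicate 4.

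The response to MG132 differed between genotypes for 8 members by the interaction term of limma, as knockout minus wild-type change on the log2 scale. It was 0.38 for Sdhd, 0.25 for Cox7a2 and 0.19 for Ndufb3. It was -0.40 for Ndufb1, -0.39 for Ndufa5, -0.31 for Ndufa10, -0.27 for Ndufa12 and -0.26 for Ndufv2. Sdhd was the member called in this contrast under all 4 scalings, and its flagged array in treated knockout cells was the lowest of its group.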

How the results depend on the processing

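Scaling moved the counts of members most. It moved the shares of all genes too. Centring arrays on the median of all probe sets gave 6 in place of 10 higher with MG132 in wild-type cells, 0 in place of 5 lower in the interaction (limma, with 3 at an unadjusted p under 0.05), and, for knockout against wild-type, 4 in place of 7 lower untreated and 7 in place of 13 lower with MG132. Quantile normalisation gave 4 in place of 7 higher with MG132 in knockout cells and 10 in place of 5 lower in the interaction. Centring on the tested-gene median, added after seeing the data, gave 24 in place of 10 higher and 33 in place of 54 lower in wild-type cells, 13 in place of 7 higher in knockout cells, 1 in place of 3 higher and 10 in place of 5 lower in the interaction, and 4 in place of 7 lower in untreated knockout cells. It turned the median over all genes to 0.13 in wild-type and 0.071 in knockout cells and the Sdha change of wild-type cells to 0.041. Without probe sets whose suffix marks shared sequence, fewer genes could be tested, and 4 rose in wild-type and 3 in knockout cells.

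Values that turned sign with the probe set rule were those of Uqcr10 in wild-type cells (0.012 as the mean of all probe sets, 0.39 without suffixed ones), of Atp5c1 in untreated knockout against wild-type cells (-0.049 and -0.30), of Uqcrq in the same comparison (-0.16 and -0.050) and of Uqcrq with MG132 (-0.13 without suffixed ones). The cause was not tested.

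Leaving out 1 array gave 50 to 55 lower and 9 to 12 higher with MG132 in wild-type cells, 55 to 58 and 5 to 11 in knockout cells, 3 to 7 lower and 2 to 5 higher in the interaction, 6 to 8 lower and 40 to 51 higher for genotype untreated, and 10 to 14 lower and 34 to 43 higher with MG132. The highest count of genes that rose in knockout cells, 11, and the highest interaction count of 5 higher came without untreated wild-type replicate 1, and 3 lower in the interaction came without untreated knockout replicate 1 or treated knockout replicate 2. Replicate numbers are shared between groups by label, and the correlations of same-numbered arrays' deviations ranged from -0.068 to 0.16, with 5 of 24 over 0.1 and 11 of 24 arrays best with their own number. Between untreated wild-type and untreated knockout arrays they were above 0 for all 4 numbers (0.087 to 0.16). Since not every pair was over 0.1, the block was not taken as the main setting. With the replicate block the counts were 55 lower and 10 higher in wild-type, 58 and 9 in knockout cells, and 7 and 3 in the interaction, and all 98 named results kept their call. Of these 98, pseudocounts of 1 and 64, no filter, a stricter filter, quantile normalisation, no variance trend and fits on the compared arrays alone also kept every call. 8 lost theirs with the median of all probe sets, 5 with that of tested genes and 6 with the mean of probe sets. A further 1 turned sign with the median of tested genes, and a further 3 with the mean of probe sets. Without suffixed probe sets, where fewer genes could be tested, 75 kept their call, 2 lost it and 4 turned sign.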
